A study of Homo sapiens with 6 samples.

Results

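The 76 genes described here are the expressed protein-coding genes of a contiguous block of the long arm of human chromosome 1, bands 1q23 to 1q25. The block runs from 161039251 to 181061938 in the GRCh38 build. The interval was chosen by measured values, namely the higher FPKM levels of its genes in the KRT17 knockout group KO2 than in the other groups. A gene was a member if it lay wholly within these ends and reached 1 FPKM (sequenced fragments divided by exon length and by library depth) in at least 2 of 6 libraries. The interval holds 153 protein-coding genes, of which 75 stayed below that level, 15 of them at 0 in all 6 libraries. A further 2, SDHC among them, passed the level and were set aside by the rule as respiratory chain genes. The 76 members were drawn from 11882 protein-coding genes that passed the same level across the genome.

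All libraries came from total RNA of NCI-N87, an established human gastric carcinoma line. The 3 groups, with 2 libraries each, were KRT17 knockout cells called KO2, KRT17 knockout cells called KO1, and wild-type cells called WT. KRT17 encodes keratin 17, an intermediate filament protein of stressed and stratified epithelia. Neither the nature of the 2 knockout groups (guide or clone) nor the origin of the replicates (separate cultures or not) is given in the labels, so a p-value here measures library-to-library spread, which may be technical.

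Neighbouring genes of a chromosome segment need not share a function. What they do share is their DNA copy number and their surroundings in the nucleus. Gains of the long arm of chromosome 1 are frequent in carcinomas, and gene-by-gene levels along a chromosome are a common way to look at such a block. DNA was not measured in these libraries.

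The promoters of 5 members are shown because these members span the patterns described in the following paragraphs. ATP1B1 was high in KO2 and intermediate in KO1, PRRC2C, MPC2 and DCAF6 were high in KO2 with KO1 below WT, and CACYBP was lower in both knockout groups. Each sequence is the stretch of 250 bases before the RefSeq start of the gene (GRCh38.p14), read 5′ to 3′ on the gene's own strand. RefSeq starts can differ from the GENCODE gene ends given for the same genes. Capitals mark matches on either strand to the CCAAT box, to the GC box core GGGCGG and to the spaced motif TGACNNNGC. The TATAAA box was searched as well and had no match in these windows. The windows are chr1:169106440-169106689 for ATP1B1, chr1:171485280-171485529 for PRRC2C, chr1:167936433-167936682 for DCAF6 and chr1:174999185-174999434 for CACYBP, all on the plus strand, and chr1:167935997-167936246 for MPC2 on the minus strand. MPC2 and DCAF6 are read in opposite directions from starts 687 bases apart, and their windows share 0 bases.
ATP1B1: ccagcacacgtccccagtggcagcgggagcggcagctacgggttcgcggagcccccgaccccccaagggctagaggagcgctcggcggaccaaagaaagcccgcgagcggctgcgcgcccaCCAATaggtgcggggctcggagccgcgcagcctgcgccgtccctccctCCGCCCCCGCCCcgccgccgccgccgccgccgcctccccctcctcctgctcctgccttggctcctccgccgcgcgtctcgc
PRRC2C: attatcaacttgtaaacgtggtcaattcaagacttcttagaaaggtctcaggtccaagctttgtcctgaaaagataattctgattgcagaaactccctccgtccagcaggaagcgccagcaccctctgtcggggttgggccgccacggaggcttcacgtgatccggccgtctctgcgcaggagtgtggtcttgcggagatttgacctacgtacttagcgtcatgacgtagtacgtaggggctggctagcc
MPC2: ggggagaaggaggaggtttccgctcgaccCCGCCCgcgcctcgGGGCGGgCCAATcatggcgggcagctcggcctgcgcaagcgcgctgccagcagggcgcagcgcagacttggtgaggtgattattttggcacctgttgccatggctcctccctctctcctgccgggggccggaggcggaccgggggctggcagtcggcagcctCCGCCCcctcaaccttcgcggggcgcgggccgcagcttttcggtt
DCAF6: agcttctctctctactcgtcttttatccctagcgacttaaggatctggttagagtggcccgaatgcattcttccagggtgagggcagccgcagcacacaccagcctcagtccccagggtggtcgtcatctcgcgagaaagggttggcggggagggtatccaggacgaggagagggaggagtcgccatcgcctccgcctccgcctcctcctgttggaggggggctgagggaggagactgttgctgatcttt
CACYBP: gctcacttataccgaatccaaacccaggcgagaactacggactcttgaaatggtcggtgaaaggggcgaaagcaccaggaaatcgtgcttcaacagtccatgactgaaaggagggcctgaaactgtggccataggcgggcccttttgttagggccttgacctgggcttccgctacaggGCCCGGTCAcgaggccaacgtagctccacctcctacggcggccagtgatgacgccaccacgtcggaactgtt

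The ATP1B1 window held 1 CCAAT and 2 GGGCGG matches, both of the GGGCGG matches on the opposite strand. The MPC2 window held 1 CCAAT and 3 GGGCGG matches, and the CACYBP window held 1 match to TGACNNNGC. The PRRC2C and DCAF6 windows had none of these letters. RefSeq windows were found for 67 of the 76 members. Among them 51 held GGGCGG (76.1%), against 42.6% of all 35116 RefSeq windows, and 29 held CCAAT (43.3%), against 32.0%. TGACNNNGC was in 10 (14.9%), against 10.9%, and TATAAA in 3 (4.48%), against 10.7%. These shares are not like for like. A member counted if any of its windows matched, while the other share is of single windows. Those windows were also not limited to expressed protein-coding genes. No enrichment is read from the shares. Each motif was counted on its own, so matches of different motifs may overlap, and a match describes letters only.

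KRT17, the targeted gene, had 11.3 and 10.4 FPKM in KO2, 2.29 and 2.403 in KO1 and 739 and 753 in WT. All 8 markers of epithelium and of NCI-N87 were called lower in KO2 and in KO1, and their summed level was 321 to 323 FPKM in KO2, 380 to 391 in KO1 and 5010 to 5177 in WT. ERBB2, amplified in this line, had 5.27 and 5.302 FPKM in KO2, 5.57 and 6.07 in KO1 and 1355 and 1420.2 in WT. KRT19 was at 0 in both KO2 libraries and CEACAM6 in both KO1 libraries. Of 5 mesenchymal markers 4 were higher in each knockout group, with sums of 94.0 to 97.6 FPKM in KO2, 82.0 to 83.7 in KO1 and 0.838 to 1.15 in WT, where LUM and COL1A2 were at 0. The knockout libraries therefore lack the defining pattern of the labelled line, and the part of this in the results was not tested. Leukocyte and endothelial markers summed to at most 0.1100 FPKM in any library. In bulk RNA, fewer cells of a type and less RNA per cell cannot be told apart.

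Members were higher in KO2 than in both other groups as a block. Their median level was 12.1 and 12.5 FPKM in the KO2 libraries, 9.40 and 9.09 in KO1, and 7.62 and 7.06 in WT. Members took 0.936% and 0.951% of all recovered reads in KO2, against 0.584% and 0.579% in KO1 and 0.492% and 0.491% in WT. The 95% Wilson intervals of the single-library shares spanned 0.932% to 0.955% in KO2, 0.576% to 0.587% in KO1 and 0.488% to 0.495% in WT. They cover counting error only. KO2 levels chose the interval, so the gaps between groups are description and carry no test. Depth was 17599759 and 18627054 recovered reads in KO2, 21880796 and 22673871 in KO1 and 19618509 and 22852340 in WT, so KO2 was the shallower group.

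Gene by gene, 62 members had their highest group mean in KO2, 12 in WT and 2 in KO1. The median difference on the log2(FPKM + 1) scale was 0.67 for KO2 minus WT and 0.40 for KO2 minus KO1, against -0.068 and -0.017 over all tested protein-coding genes. Both KO2 libraries lay above both KO1 libraries for 66 members, below them for 4, and overlapped for 6; over all genes 29.2% lay above and 35.6% below. A call here means an adjusted p below 0.05 in a limma fit over 16046 genes with Benjamini-Hochberg adjustment. For KO2 minus KO1, 57 members were called higher and 2 lower, where 11.2% and 15.0% of all genes were called so and 26.2% in either direction. For KO2 minus WT, 56 were called higher and 11 lower, beside 39.1% and 39.8% of all genes, and 78.9% in either direction. By library order both KO2 libraries lay above both WT libraries for 59 members and below for 11, where 44.2% and 44.3% of all genes did so. These contrasts chose the interval, so the counts are description and carry no test of the block.

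**Figure D1:**
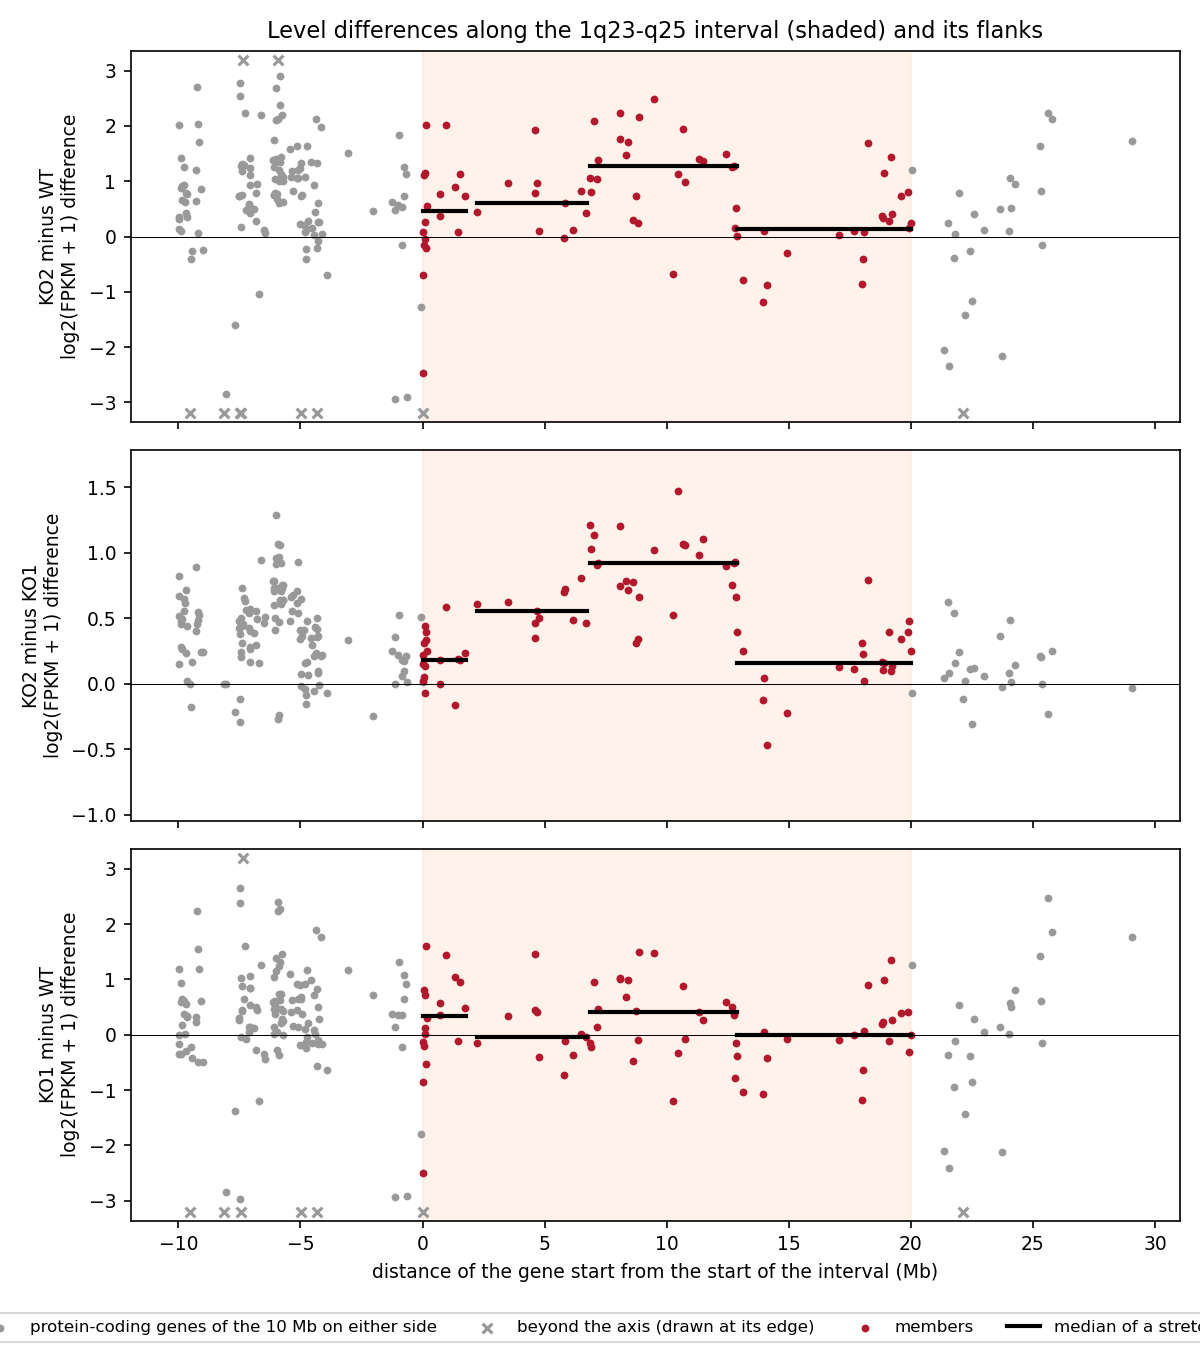
Difference on the log2(FPKM + 1) scale for each gene (y axis) against its distance in Mb from the start of the interval (x axis), for KO2 minus WT, KO2 minus KO1 and KO1 minus WT from top to bottom. Red points are the 76 members, grey points the tested protein-coding genes within 10 Mb on either side, crosses lie beyond the axis and black lines are the medians of 4 stretches. In the middle panel the third stretch stands highest, with a median of 0.92.

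The KO2 minus KO1 difference was uneven along the chromosome. The members were cut into 4 stretches after their values were seen, so the cuts are a description with no test. The first stretch, USF1 to HSD17B7 (18 members), had a median KO2 to KO1 ratio of 1.16. NUF2 to MPZL1 (11 members) had a median ratio of 1.53. MPC2 to ZBTB37 (25 members, 167916729 to 173903549) had a median ratio of 1.997, with the central 50% of members between 1.79 and 2.32. RC3H1 to MR1 (22 members) had a median ratio of 1.14, though SOAT1 within it stood at 1.76.

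In the third stretch KO2 lay above KO1 in all libraries for 25 of 25 members, and the log2 difference ran from 0.31 to 1.47 with an interquartile range of 0.32. The same 25 members had an interquartile range of 0.91 for KO2 minus WT. Over all tested protein-coding genes the ranges were 0.25 for KO2 minus KO1 and 1.24 for KO2 minus WT. A wider range against WT was therefore not particular to this stretch. The second stretch had 11 of 11 members above KO1, from 0.35 to 0.81 log2, but with 11 genes its median rests on few points. In the fourth stretch 16 of 22 members lay above KO1 and 3 below, from -0.47 to 0.79. Over all genes tested 29.2% lay above and 35.6% below. The cuts were placed after these values were seen, so nothing is read from the counts. Runs of 20 members in position order do not use these cuts. Their KO2 minus KO1 medians were 0.20, 0.73, 0.71 and 0.20, the last over 16 members. These runs did not set the second stretch apart from the third.

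**Figure D2:**
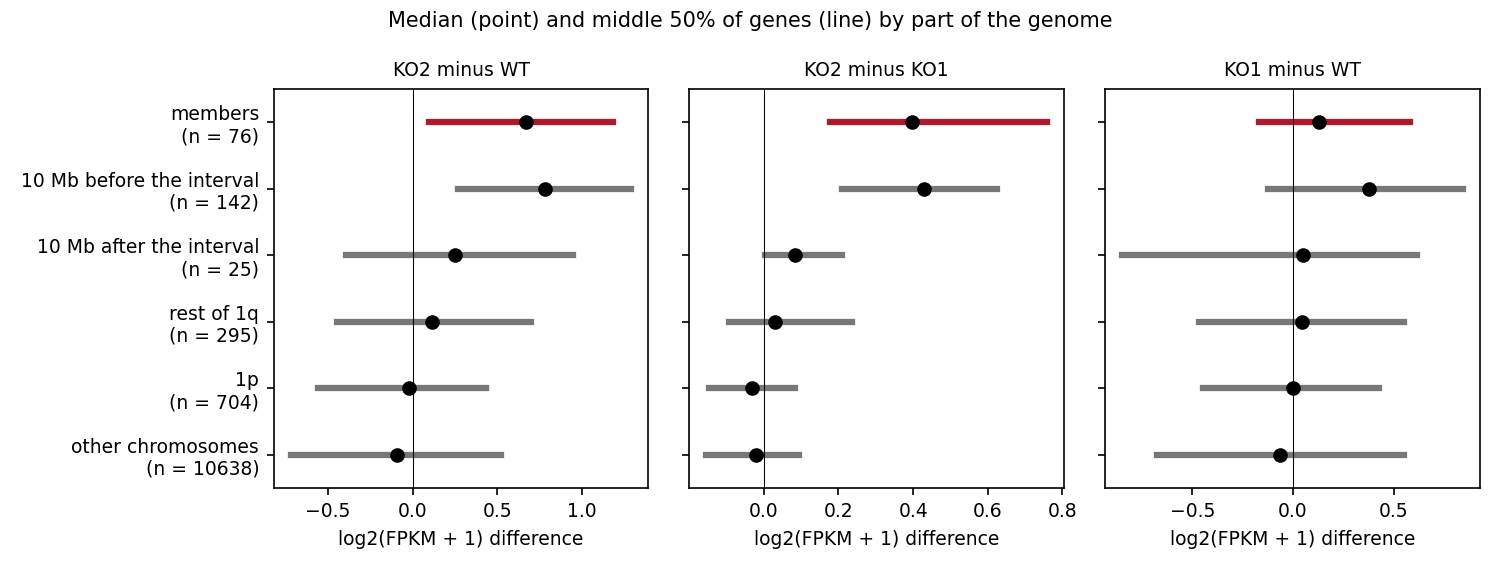
Median (point) and interquartile range (bar) of the log2(FPKM + 1) difference (x axis) for parts of the genome (y axis), for KO2 minus WT, KO2 minus KO1 and KO1 minus WT. The members and the 10 Mb before them stand to the right of the rest of 1q, 1p and the other chromosomes in KO2 minus KO1, at 0.40 and 0.43 against 0.029, -0.033 and -0.022.

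The higher values did not begin at the start of the interval. In the 10 Mb before it, 142 tested protein-coding genes had medians of 0.78 for KO2 minus WT, 0.43 for KO2 minus KO1 and 0.38 for KO1 minus WT. Beyond the other end, 25 genes within 10 Mb had medians of 0.25, 0.084 and 0.051 in the same contrasts. The remaining 295 genes of the long arm had 0.11, 0.029 and 0.044. The short arm, with 704 genes, had -0.023, -0.033 and 0.0025.

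Just outside the start lie VANGL2, F11R and TSTD1. F11R, a tight junction adhesion molecule, had 7.49 and 7.06 FPKM in KO2, 4.83 and 4.81 in KO1 and 20.2 and 18.04 in WT, so KO2 was above KO1 and both were below WT. VANGL2, a planar cell polarity protein, had 0.0191 and 0.0706 FPKM in KO2, 0.0161 and 0.0577 in KO1 and 6.86 and 6.81 in WT. TSTD1 had 0.0422 and 0.0445 FPKM in KO2, 0.0709 and 0 in KO1 and 29.8 and 31.4 in WT. For both of them WT alone reached 1 FPKM.

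IER5 and GLUL lie just outside the far end. IER5, an immediate early gene, had 27.6 and 25.2 FPKM in KO2, 27.6 and 27.9 in KO1 and 11.5 and 10.5 in WT, with both knockout groups above WT. GLUL, glutamine synthetase, had 3.76 and 3.45 FPKM in KO2, 3.56 and 3.38 in KO1 and 18.2 and 18.2 in WT, with both below WT. The first members inside the start were USF1, ARHGAP30 and NECTIN4, and the last inside the end were KIAA1614, STX6 and MR1.

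The direct contrast of KO1 with WT did not choose the interval, but both of its groups entered the choice: it shares the WT libraries with KO2 minus WT and the KO1 libraries with KO2 minus KO1. KO1 was called higher than WT for 39 of 76 members (51.3%) and lower for 23 (30.3%), beside 39.3% and 38.6% of all genes tested. The median difference was 0.13 log2, with an interquartile range of 0.75, against a median of -0.048 and a range of 1.20 over all protein-coding genes. With 62 of 76 called in either direction beside 77.8% of all genes, the share of members that changed was near the background. Both KO1 libraries lay above both WT libraries for 40 members and below for 31, beside 45.1% and 44.0% of all genes. KO1 was called higher for 16 members of the third stretch and lower for 6, and for 8 and 7 members of the fourth.

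Of these calls, 35 of the 39 higher and 16 of the 23 lower held in all 13 alternative fits. TIPRL lost its call when any single library but KO1 replicate 2 was left out, with 0.071 log2 (limma adjusted p = 0.146) without KO1 replicate 1, 0.13 (0.0729 and 0.0730) without KO2 replicate 1 or 2, and 0.14 (0.130) and 0.12 (0.171) without WT replicate 1 or 2. MPC2 lost it without KO1 replicate 1 or 2 (-0.15 each, adjusted p = 0.135 and 0.132) and without WT replicate 1 or 2 (-0.16 and -0.14, adjusted p = 0.128 and 0.174). DEDD lost it without every library but WT replicate 2, with 0.15 and 0.11 log2 without KO1 replicate 1 or 2 (adjusted p = 0.0799 and 0.169), 0.13 without either KO2 library (0.0580 and 0.0582) and 0.090 without WT replicate 1 (0.137). USF1 lost it without KO1 replicate 1 or 2 (-0.11 and -0.15, adjusted p = 0.105 and 0.0523) and without WT replicate 2 (-0.098, adjusted p = 0.0635). NUF2 lost it without KO1 replicate 2 or WT replicate 1 (-0.12 each, adjusted p = 0.0804 and 0.0580), and UHMK1 without KO1 replicate 2 (-0.087, adjusted p = 0.0783). C1orf112 lost it without WT replicate 2 (-0.37, adjusted p = 0.0551), and METTL18 without KO1 replicate 2 (0.40, adjusted p = 0.0611). USF1, UHMK1, NUF2 and MPC2 also lost it with library size only and with quantile normalization. MPC2 further lost it with no filter, the replicate block and voom. DEDD and TIPRL also lost it in some fits on all libraries of the contrast. DCAF6 lost it with library size only and KIAA1614 with quantile normalization, in no other fit. PFDN2 was called the other way, higher in KO1, with quantile normalization (0.070 log2, limma adjusted p = 0.0194).

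**Figure D3:**
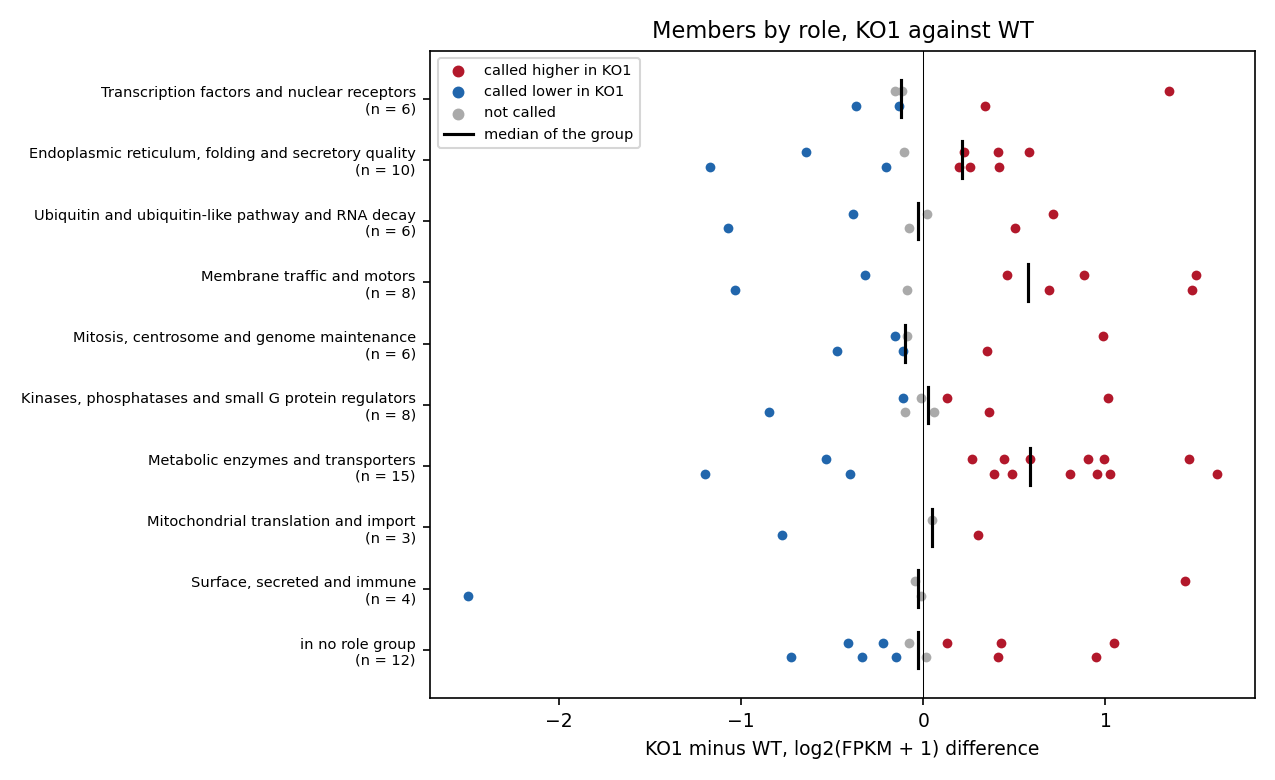
KO1 minus WT difference on the log2(FPKM + 1) scale (x axis) of each member by role group (y axis). Points are coloured by call and the line is the group's median. Metabolic enzymes and transporters have 12 members called higher and 3 lower, with a median of 0.58.

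Metabolic enzymes and transporters formed the biggest role group, with 15 members among 19 listed genes of the interval. In KO1, 12 were called higher than WT and 3 lower, beside 39.3% and 38.6% of all genes, with a median difference of 0.58 log2. Both KO2 libraries lay above both KO1 libraries for all 15, where 66 of 76 members and 29.2% of all genes did so; that contrast chose the interval, and nothing is read from the count. Role groups were written from general knowledge with earlier results of these data known, and none was tested as a group.

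ATP1B1 encodes the beta-1 subunit of the sodium and potassium pump (ENSG00000143153, chromosome 1, 169105697 to 169132722). Its level was 263 and 262 FPKM in KO2, 113 and 114 in KO1 and 55.3 and 54.9 in WT. The groups formed a ladder with KO2 at 2.32 times KO1 and KO1 at 2.06 times WT (1.03 ± 0.020 log2, limma adjusted p = 1.41e-06). PRDX6, a peroxiredoxin that reduces phospholipid peroxides (ENSG00000117592, chromosome 1, 173477266 to 173488807), had the highest mean of any member over the 6 libraries, at 319 and 316 FPKM in KO2, 171 and 169 in KO1 and 111.8 and 114 in WT. It showed the same order, with KO2 at 1.87 times KO1 and KO1 above WT (0.58 ± 0.022 log2, limma adjusted p = 1.07e-05).

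MGST3, a microsomal glutathione transferase, had 30.8 and 31.3 FPKM in KO2, 22.3 and 22.2 in KO1 and 7.86 and 7.12 in WT. Here most of the distance lay between KO1 and WT (1.46 ± 0.047 log2, limma adjusted p = 6.42e-06), with KO2 at 1.39 times KO1. PPOX, an enzyme of heme synthesis, had 8.91 and 8.36 FPKM in KO2, 6.51 and 6.14 in KO1 and 1.598 and 1.21 in WT, and its KO1 difference was the largest among members with a mean of at least 5 FPKM (1.61 ± 0.092 log2, limma adjusted p = 4.36e-05). PPOX shares exonic sequence positions with B4GALT3, so reads of the pair may be split differently by other counting.

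SOAT1, which esterifies cholesterol, had 34.1 and 35.4 FPKM in KO2, 19.7 and 19.7 in KO1 and 9.804 and 10.3 in WT and rose in KO1 over WT (0.91 ± 0.037 log2, limma adjusted p = 1.31e-05). SLC19A2, a thiamine transporter, had 22.3 and 23.6 FPKM in KO2, 13.5 and 13.6 in KO1 and 6.52 and 6.09 in WT and likewise rose in KO1 (0.99 ± 0.046 log2, limma adjusted p = 2.01e-05). UAP1, which makes UDP-N-acetylglucosamine, had 50.2 and 49.99 FPKM in KO2, 44.4 and 43.6 in KO1 and 22.2 and 22.2 in WT. For UAP1 both knockout groups were close to each other, at 2.25 times WT in KO2 and 1.98 times in KO1 (0.95 ± 0.023 log2, limma adjusted p = 2.59e-06).

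The 3 members of this group that fell in KO1 were UCK2, B4GALT3 and FMO4. UCK2, a uridine and cytidine kinase, had 31.7 and 30.2 FPKM in KO2, 22.4 and 20.6 in KO1 and 28.3 and 29.3 in WT (-0.40 ± 0.051 log2, limma adjusted p = 0.00098 for KO1 minus WT). B4GALT3, a galactosyltransferase, had 11.9 and 11.05 FPKM in KO2, 8.66 and 9.13 in KO1 and 14.05 and 12.6 in WT. FMO4, a flavin-containing monooxygenase, had 0.608 and 0.621 FPKM in KO2, 0.153 and 0.0874 in KO1 and 1.62 and 1.51 in WT, a low level in every group. Only the WT libraries of FMO4 reached 1 FPKM, so its place below WT was part of its passing the level. In all of them KO2 stood above KO1 by ratios of 1.44, 1.29 and 5.105. The FMO4 ratio rests on 30 and 29 recovered reads in KO2 and 9 and 5 in KO1.

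Membrane traffic and motor genes had the widest KO2 to WT distance of the role groups, with a median KO2 minus WT of 1.43 log2 over 8 members of 10 listed. That contrast chose the interval, so nothing is read from the rank. Of these members SFT2D2, BLZF1, SCYL3, KIFAP3, GORAB and VAMP4 lie in the third stretch, so role and position cannot be told apart. In KO1, 5 were called higher and 2 lower (median 0.57), beside 39.3% and 38.6% of all genes. GORAB, a golgin of the Golgi apparatus (ENSG00000120370, chromosome 1, 170532129 to 170553446), had 20.2 and 19.1 FPKM in KO2, 9.86 and 8.54 in KO1 and 3.01 and 2.35 in WT. KO2 was 7.33 times WT and 2.13 times KO1, and KO1 was above WT (1.47 ± 0.11 log2, limma adjusted p = 0.000115).

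KIFAP3, the cargo adaptor subunit of kinesin-2 (ENSG00000075945, chromosome 1, 169921326 to 170085208), had 12.3 and 12.5 FPKM in KO2, 7.29 and 7.59 in KO1 and 1.91 and 2.08 in WT. KO1 was 3.73 times WT (1.496 ± 0.048 log2, limma adjusted p = 6.32e-06) and KO2 was 1.67 times KO1. VAMP4, a SNARE protein of the trans-Golgi network, had 9.32 and 9.87 FPKM in KO2, 4.01 and 4.11 in KO1 and 1.598 and 1.899 in WT, with KO1 above WT (0.88 ± 0.070 log2, limma adjusted p = 0.000149). SFT2D2, a Golgi membrane protein, had 29.03 and 31.3 FPKM in KO2, 15.4 and 15.5 in KO1 and 10.8 and 11.1 in WT (0.46 ± 0.043 log2, limma adjusted p = 0.000284 for KO1 minus WT). None of these 4 had overlapping groups.

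STX6 and RABGAP1L went the other way in KO1. STX6, a syntaxin of endosomes and the trans-Golgi network, had 13.2 and 13.6 FPKM in KO2, 9.23 and 9.43 in KO1 and 11.8 and 11.9 in WT, lower in KO1 than in WT (-0.32 ± 0.033 log2, limma adjusted p = 0.000418). RABGAP1L, a Rab GTPase-activating protein, had 1.47 and 1.44 FPKM in KO2, 1.06 and 1.07 in KO1 and 3.199 and 3.25 in WT, lower in both knockout groups (-1.03 ± 0.058 log2, limma adjusted p = 4.23e-05 for KO1 minus WT).

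**Figure D4:**
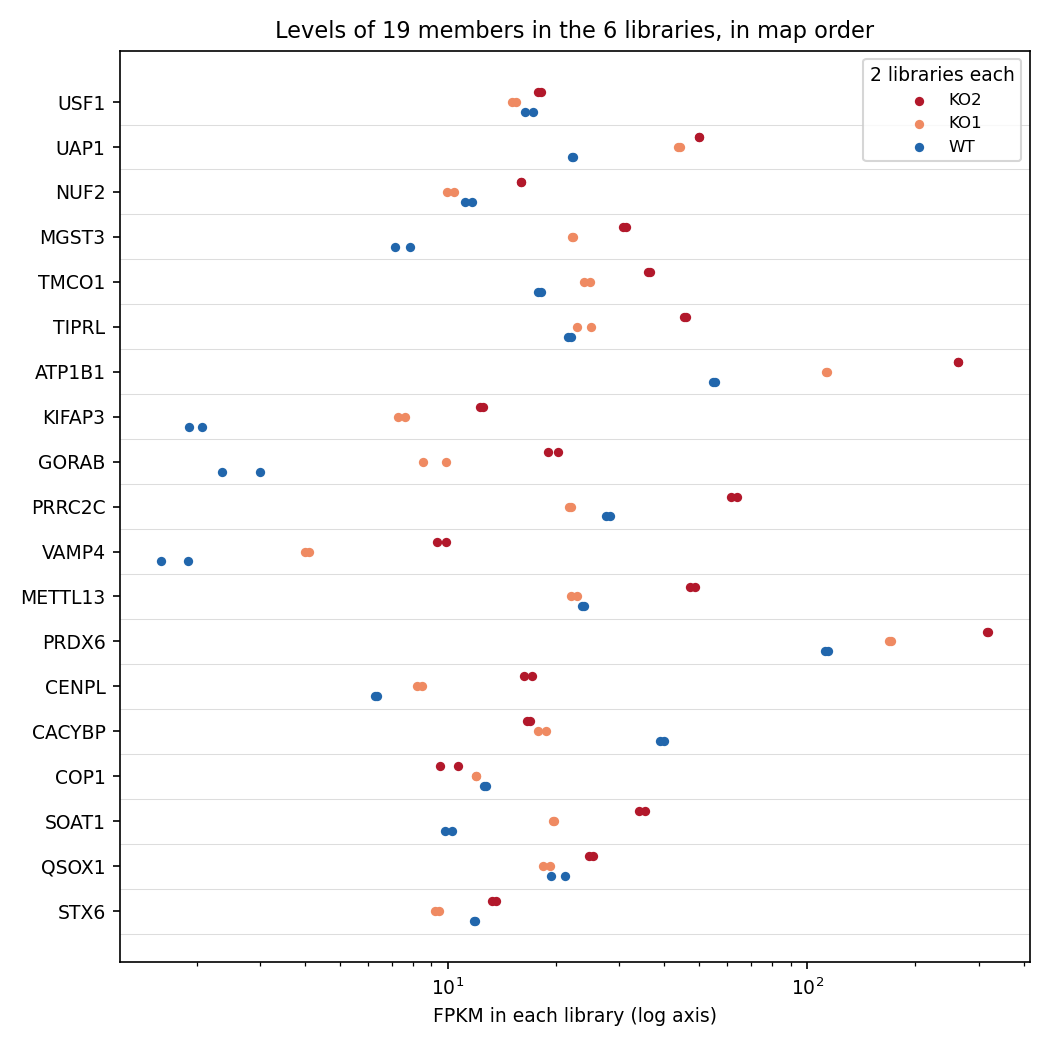
FPKM on a log axis (x) of 19 members in chromosome order (y), with both libraries of KO2, KO1 and WT shown as points. ATP1B1 and PRDX6 stand highest of those shown in all 3 groups, and CACYBP and COP1 are the members shown with KO2 below KO1.

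Endoplasmic reticulum and folding genes included 10 members. Of these, 6 were called higher and 3 lower in KO1 (median 0.21 log2), beside 39.3% and 38.6% of all genes. TMCO1, a calcium channel of the endoplasmic reticulum, had 36.03 and 36.5 FPKM in KO2, 24.9 and 23.9 in KO1 and 17.9 and 18.2 in WT (0.42 ± 0.031 log2, limma adjusted p = 0.000117 for KO1 minus WT). ATF6, a sensor of unfolded proteins, had 14.5 and 14.7 FPKM in KO2, 12.7 and 12.8 in KO1 and 8.57 and 7.83 in WT (0.58 ± 0.047 log2, limma adjusted p = 0.000164). PIGC, of glycosylphosphatidylinositol anchor synthesis, had 15.96 and 15.9 FPKM in KO2, 7.61 and 7.47 in KO1 and 5.203 and 5.68 in WT and SUCO, an endoplasmic reticulum membrane protein, had 11.9 and 12.6 FPKM in KO2, 5.19 and 5.13 in KO1 and 3.98 and 4.32 in WT. These 4 all kept the order KO2, KO1, WT without overlap.

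The 3 that fell in KO1 were PFDN2, FAM20B and TOR3A. FAM20B, a xylose kinase of proteoglycan linker synthesis, had 19.7 and 19.8 FPKM in KO2, 15.98 and 15.5 in KO1 and 37.6 and 35.9 in WT (-1.17 ± 0.034 log2, limma adjusted p = 4.55e-06). TOR3A, a torsin ATPase, had 17.4 and 18.5 FPKM in KO2, 15.4 and 14.9 in KO1 and 23.4 and 25.1 in WT (-0.64 ± 0.048 log2, limma adjusted p = 0.000123). PFDN2, a prefoldin subunit, had 123 and 121 FPKM in KO2, 119.7 and 116 in KO1 and 135 and 136 in WT. Its KO1 difference of -0.20 log2 changed sign under quantile normalization (0.070), where it was called higher. QSOX1, a sulfhydryl oxidase that forms disulfide bonds, had 25.3 and 24.7 FPKM in KO2, 19.2 and 18.4 in KO1 and 19.4 and 21.2 in WT, and KO1 minus WT missed the threshold (-0.10 ± 0.051 log2, limma adjusted p = 0.111).

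Ubiquitin pathway and RNA decay genes were mixed, with 2 of 6 called higher and 2 lower in KO1, beside 39.3% and 38.6% of all genes. CACYBP, a calcyclin-binding partner of ubiquitin ligases (ENSG00000116161, chromosome 1, 174999163 to 175011715), had 16.9 and 16.6 FPKM in KO2, 18.8 and 17.8 in KO1 and 40.02 and 39.02 in WT. Both knockout groups lay below WT and KO2 lay below KO1, with KO1 minus WT at -1.07 ± 0.035 log2, limma adjusted p = 6.69e-06. The count of CACYBP is uncertain, since 3 annotated pseudogenes carry its name and it overlaps MRPS14. COP1, an E3 ubiquitin ligase, had 9.53 and 10.7 FPKM in KO2, 11.96 and 11.98 in KO1 and 12.6 and 12.8 in WT, one of the 2 members called lower in KO2 than in KO1.

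USP21, a deubiquitinase, had 16.6 and 16.3 FPKM in KO2, 12.03 and 11.7 in KO1 and 7.25 and 6.45 in WT (0.71 ± 0.056 log2, limma adjusted p = 0.00015), and KLHL20, an adaptor of a cullin ligase, had 11.6 and 12.4 FPKM in KO2, 6.88 and 6.57 in KO1 and 4.703 and 4.21 in WT (0.50 ± 0.062 log2, limma adjusted p = 0.000916). UFC1, the conjugating enzyme of UFM1, had 21.9 and 19.5 FPKM in KO2, 21.98 and 21.6 in KO1 and 21.3 and 21.7 in WT. Its groups overlapped and KO1 minus WT was not called (0.020 ± 0.057 log2, limma adjusted p = 0.758). RC3H1, an RNA-binding protein of mRNA decay, had 4.76 and 4.97 FPKM in KO2, 3.62 and 3.29 in KO1 and 4.99 and 4.65 in WT and fell in KO1 (-0.39 ± 0.062 log2, limma adjusted p = 0.00256).

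Transcription factors included 6 members of 11 listed. In KO1 2 were called higher and 2 lower, beside 39.3% and 38.6% of all genes. LHX4, a LIM homeodomain factor, had 3.78 and 3.41 FPKM in KO2, 3.16 and 3.43 in KO1 and 0.573 and 0.808 in WT and rose in KO1 (1.35 ± 0.095 log2, limma adjusted p = 9.68e-05). POU2F1, the octamer-binding factor OCT1, had 5.07 and 5.13 FPKM in KO2, 3.34 and 3.34 in KO1 and 4.52 and 4.69 in WT and fell in KO1 (-0.37 ± 0.044 log2, limma adjusted p = 0.000786).

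USF1, an E-box factor, had 18.2 and 17.8 FPKM in KO2, 15.1 and 15.5 in KO1 and 16.5 and 17.3 in WT, with KO2 above WT and KO1 below it. TADA1, a subunit of the SAGA coactivator, had 9.54 and 11.2 FPKM in KO2, 5.61 and 6.102 in KO1 and 6.55 and 6.302 in WT, and KO1 minus WT was not called (-0.12 ± 0.082 log2, limma adjusted p = 0.245). ZBTB37 had 2.996 and 2.89 FPKM in KO2, 1.47 and 1.501 in KO1 and 1.73 and 1.81 in WT (-0.16 ± 0.059 log2, limma adjusted p = 0.0574). In these 3 the KO1 and WT libraries did not overlap, KO1 being the lower.

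Mitosis and genome maintenance held 6 members, of which 2 were called higher and 3 lower in KO1, beside 39.3% and 38.6% of all genes. The 3 lower calls (NUF2, C1orf112 and UHMK1) are among those lost when a single library was left out. NUF2, of the NDC80 kinetochore complex, had 16.04 and 15.96 FPKM in KO2, 10.4 and 9.94 in KO1 and 11.7 and 11.2 in WT. CENPL, of the centromere, had 16.3 and 17.1 FPKM in KO2, 8.49 and 8.201 in KO1 and 6.35 and 6.29 in WT and rose in KO1 (0.35 ± 0.040 log2, limma adjusted p = 0.00065). CEP350, of the centrosome, had 7.87 and 8.31 FPKM in KO2, 7.16 and 7.16 in KO1 and 3.33 and 2.92 in WT, with KO1 close to KO2 (0.99 ± 0.063 log2, limma adjusted p = 6.62e-05). C1orf112 had 6.47 and 7.61 FPKM in KO2, 3.74 and 3.63 in KO1 and 5.04 and 5.99 in WT. For NUF2 and C1orf112 the KO1 libraries were the lowest, and for CENPL and CEP350 the WT libraries were.

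Kinase, phosphatase and small G protein genes were mixed, with a median KO1 minus WT of 0.024 log2. In KO1 3 of 8 members were called higher and 2 lower, beside 39.3% and 38.6% of all genes. NME7, which carries nucleoside diphosphate kinase domains, had 10.9 and 10.5 FPKM in KO2, 6.14 and 5.84 in KO1 and 2.75 and 2.202 in WT (1.01 ± 0.085 log2, limma adjusted p = 0.00019), but overlaps ATP1B1. DUSP12, a phosphatase, had 26.8 and 25.8 FPKM in KO2, 25.7 and 26.8 in KO1 and 19.8 and 20.5 in WT, with KO2 and KO1 overlapping and KO1 above WT (0.36 ± 0.038 log2, limma adjusted p = 0.000442). TIPRL, a regulator of PP2A-type phosphatases, had 45.5 and 46.1 FPKM in KO2, 25.1 and 22.95 in KO1 and 21.96 and 21.7 in WT. ABL2, a tyrosine kinase, had 9.04 and 9.99 FPKM in KO2, 9.403 and 9.34 in KO1 and 8.63 and 9.27 in WT, with KO2 overlapping both other groups and no call for KO1 minus WT (0.060 ± 0.059 log2, limma adjusted p = 0.388).

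Mitochondrial translation and import held 3 members. TOMM40L, a homologue of the outer membrane import pore, had 6.39 and 5.78 FPKM in KO2, 4.94 and 4.96 in KO1 and 3.76 and 3.91 in WT (0.30 ± 0.057 log2, limma adjusted p = 0.0052). MRPS14, of the small mitochondrial ribosomal subunit, had 11.2 and 11.8 FPKM in KO2, 10.9 and 11.3 in KO1 and 11.2 and 10.3 in WT and was not called (0.047 ± 0.050 log2, limma adjusted p = 0.426).

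Surface, secreted and immune genes reached the level of 1 FPKM in 4 of 29 listed. NECTIN4, an adhesion molecule of epithelial junctions (ENSG00000143217, chromosome 1, 161070995 to 161089599), had 2.13 and 2.01 FPKM in KO2, 1.897 and 2.15 in KO1 and 15.4 and 16.7 in WT. It fell in KO1 (-2.498 ± 0.068 log2, limma adjusted p = 3.68e-06), the largest fall of a member on the log2(FPKM + 1) scale. By the ratio of mean FPKM, KO1 was at 0.126 times WT, and FMO4, at low levels, was further down at 0.0768 times. FMO4 passed the level through WT alone. The KO2 and KO1 libraries of NECTIN4 overlapped. OLFML2B, a secreted olfactomedin-domain protein, had 3.73 and 3.42 FPKM in KO2, 2.08 and 2.02 in KO1 and 0.0814 and 0.175 in WT and rose in KO1 (1.44 ± 0.079 log2, limma adjusted p = 3.74e-05). MPZL1, a cell surface glycoprotein, had 30.8 and 31.1 FPKM in KO2, 22.04 and 22.1 in KO1 and 22.7 and 22.9 in WT, and MR1, which presents vitamin B metabolites to T cells, had 4.07 and 4.33 FPKM in KO2, 3.58 and 3.15 in KO1 and 3.29 and 3.500 in WT; neither was called in KO1.

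The 12 members in no role group included several of the widest KO2 to KO1 ratios. PRRC2C, a proline-rich coiled-coil protein (ENSG00000117523, chromosome 1, 171485551 to 171593511), had 61.2 and 63.8 FPKM in KO2, 21.99 and 21.8 in KO1 and 27.5 and 28.2 in WT. Its KO2 level was 2.85 times KO1, while KO1 was below WT (-0.33 ± 0.031 log2, limma adjusted p = 0.000267). MPC2, a subunit of the mitochondrial pyruvate carrier, had 28.2 and 25.5 FPKM in KO2, 11.02 and 11.03 in KO1 and 12.2 and 12.4 in WT, and DCAF6, a cullin ligase substrate receptor read from the neighbouring start, had 19.5 and 19.99 FPKM in KO2, 9.39 and 8.99 in KO1 and 11.2 and 10.6 in WT. In both, KO2 was highest and KO1 lowest without overlap, and the 2 genes share some exonic positions.

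GPR161, a ciliary receptor that restrains Hedgehog signalling, had 4.64 and 4.53 FPKM in KO2, 1.58 and 1.501 in KO1 and 0.301 and 0.335 in WT and rose in KO1 (0.95 ± 0.062 log2, limma adjusted p = 7.53e-05). METTL13, a methyltransferase of elongation factor 1A, had 48.7 and 47.2 FPKM in KO2, 22.9 and 22.1 in KO1 and 23.7 and 23.9 in WT, with KO1 and WT near each other (-0.079 ± 0.031 log2, limma adjusted p = 0.0631). CREG1, a lysosomal glycoprotein, had 48.8 and 50.7 FPKM in KO2, 28.4 and 27.5 in KO1 and 27.7 and 27.5 in WT, and KO1 and WT did not separate (0.017 ± 0.032 log2, limma adjusted p = 0.656). POGK had 15.97 and 16.1 FPKM in KO2, 9.55 and 9.38 in KO1 and 16.02 and 16.6 in WT, where KO1 fell below WT (-0.73 ± 0.033 log2, limma adjusted p = 1.89e-05) and KO2 did not separate from it. KIAA0040 had 6.12 and 5.78 FPKM in KO2, 8.702 and 8.54 in KO1 and 12.1 and 11.6 in WT, with the order turned round and KO2 lowest.

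Members were sorted by library order, where KO2 above KO1 was part of the choice of the interval. In 36 of 76, both KO2 libraries lay above both KO1 libraries and both KO1 above both WT. In 27, KO2 lay above KO1 while KO1 lay below WT. These 27 are not a single order, since KO2 lay above WT for some (PRRC2C) and below WT for others (FAM20B). In a further 3 KO2 lay above KO1 with KO1 and WT overlapping. Over all genes tested, both KO2 libraries lay above both KO1 libraries in 29.2% and below them in 35.6%. The shares of all genes in the orders of all 3 groups were not counted, so nothing is read from these counts.

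At the level threshold itself, the second highest library decided membership. ARHGAP30 and FMO4 reached 1 FPKM in WT alone, and KIAA1614 in KO2 alone, so their highest group was part of passing the level. ARHGAP30 was just inside at 0.332 and 0.521 FPKM in KO2, 0.305 and 0.261 in KO1 and 1.39 and 1.23 in WT, and KIAA1614 was just inside at 1.34 and 1.34 FPKM in KO2, 0.803 and 0.755 in KO1 and 0.282 and 0.4005 in WT. MYOCOS was just outside at 0.714 and 0.957 FPKM in KO2, 0.989 and 1.13 in KO1 and 0.0175 and 0.0617 in WT. DNM3, a dynamin, was just outside at 0.982 and 1.02 FPKM in KO2, 0.4200 and 0.447 in KO1 and 0.0368 and 0.0721 in WT.

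Of the 2 respiratory chain genes set aside, SDHC, a complex II subunit, had 15.3 and 15.3 FPKM in KO2, 14.6 and 14.1 in KO1 and 9.75 and 9.300 in WT. KO2 and KO1 lay above WT, and KO2 above KO1 by a ratio of 1.07.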

How the data were processed

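The authors deposited FPKM values per gene for 6 libraries of total RNA. Per the submitters' processing notes, HISAT2 2.0.5, featureCounts 1.5.0-p3 and the hg38 build were used. Not given in the sources used here are the strand setting, the treatment of multi-mapped reads and the annotation release. Every one of the 58735 gene IDs matched GENCODE release 29, which supplied positions and exon lengths. Of the members 32 share exonic positions with another gene and 7 (USF1, DUSP12, HSD17B7, ATP1B1, PRRC2C, PIGC and CACYBP) have an annotated pseudogene of their name, so their counts are uncertain.

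Values of FPKM times exon length were whole multiples of 1 step per library, for 100% of values within a tolerance of 0.1 of a step, which gave recovered reads. Genes with at least 1 FPKM in 2 libraries (16046) were fitted as log2(FPKM + 1) in R 4.3.3 by limma 3.58.1 (group means, trend, all 6 libraries, no block), and p-values were adjusted by Benjamini-Hochberg over all of them. The pseudocount of 1 FPKM understates changes of low genes. Log2 differences are given ± SE; ratios are of group means of FPKM. With 2 libraries a group, an exact permutation test cannot go below p = 0.333. In simulated data for KO1 minus WT over 16046 genes, 100 genes were changed at each size, none of them at low levels. Of these, 67% of changes of 0.5 log2 and 96% of changes of 1 log2 were recovered, with 10 false calls. In the real contrast 77.8% of all genes were called, so the simulated shares do not carry over to it.

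The members, role groups and other lists were chosen with earlier results of these data known. Most named genes follow a rule: the 8 highest and 4 lowest KO2 minus WT differences, the 4 highest levels, 3 genes either side of each end, 2 per role group, 5 highest and 5 lowest KO1 minus WT differences, 2 either side of the FPKM threshold, KRT17 and markers. Other members are named after their values were seen. Some genes that the rule selects are counted but not reported here by name. Alternatives were a pseudocount of 0.1, no filter, quantile normalization, library size only, voom with trimmed-mean factors on recovered reads, the contrast's libraries alone, a replicate block, each library left out, a mean of at least 5 FPKM and no exonic overlap. Promoter windows came from RefSeq (GRCh38.p14).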

Additional observations from a re-analysis of the deposited data

Results flagged for a closer look

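For 16 of the members reported here the 2 knockout groups lay on opposite sides of WT: both KO2 libraries were above both WT libraries and both KO1 libraries were below them. The members were listed for these opposite signs. Taken singly, KO2 lay above WT in 44.2% of all genes and KO1 below WT in 44.0%. The share of all genes with both orders was not counted, so the list is not shown to be particular to the interval. The difference was not tested, because KO2 levels chose the interval and both groups are set against the same WT libraries. The KO2 to KO1 ratio of mean FPKM was 1.18 for USF1 and 1.14 for UHMK1 in the first stretch. In the second stretch it was 1.57 for NUF2, 1.44 for UCK2, 1.77 for TADA1, 1.53 for POU2F1 and 1.4 for MPZL1. In the third stretch it was 2.44 for MPC2, 2.15 for DCAF6, 1.91 for C1orf112, 1.38 for SCYL3, 2.85 for PRRC2C, 2.13 for METTL13 and 1.98 for ZBTB37. In the fourth stretch it was 1.33 for QSOX1 and 1.44 for STX6. Not all were called in both contrasts. USF1 and UCK2 were not called in KO2 minus WT. TADA1, MPZL1, SCYL3, METTL13, ZBTB37 and QSOX1 were not called in KO1 minus WT. For UHMK1 and MPZL1 the KO1 minus WT difference turned positive with library size as scaling (0.023 and 0.088 log2). With the same scaling it was -0.0024 for USF1, -0.022 for MPC2, -0.029 for NUF2 and -0.099 for DCAF6, none of them called. With 2 libraries in each group, a single library can place a member on this list: no exact permutation test of 2 against 2 can go below p = 0.333.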

How the results depend on the processing

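The direction of the members' medians held in all contrasts under every alternative, and 107 of 135 values of counts and medians kept their size. The KO2 minus WT median of 0.67 log2 became 0.81 when scaled by library size only, 0.76 with a pseudocount of 0.1 FPKM, 0.80 with voom on recovered reads, 0.74 for members with a mean of at least 5 FPKM and 0.73 for members without exonic overlap, and ran from 0.59 to 0.72 with 1 library left out. The KO2 minus KO1 median of 0.40 became 0.47 with the smaller pseudocount, 0.45 with quantile normalization, 0.51 with voom, 0.45 at the mean of 5 FPKM and 0.46 without overlap, and ran from 0.37 to 0.44 with 1 library left out. The KO1 minus WT median of 0.13 became 0.26 with library size only and 0.18 with quantile normalization. Library size only also moved the median of all genes to 0.14 for KO2 minus WT and 0.13 for KO1 minus WT, against 0.0062 and 0.023, so the members' KO1 median relative to all genes was about as before.

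The 44 members without exonic overlap had 32 called higher in KO2 minus WT, 36 higher in KO2 minus KO1, and 22 higher and 13 lower in KO1 minus WT, from fewer genes by construction. Members called lower in KO2 than in KO1 numbered 1, in place of 2, with the contrast's libraries alone, library size only, no filter, quantile normalization and the replicate block, and 1 to 2 with 1 library left out. With 1 library left out, members called higher ran from 39 to 53 in KO2 minus KO1 and from 37 to 38 in KO1 minus WT. PFDN2 changed sign in KO2 minus WT (0.012 by library size, 0.13 by quantile normalization) and in KO1 minus WT (0.070 by quantile normalization). POGK did in KO2 minus WT (0.13 and 0.11), UHMK1 in KO1 minus WT (0.023 and 0.035) and MPZL1 in KO1 minus WT (0.088 by library size). The cause of these changes was not tested. Over all genes, KO2 minus KO1 gave 4203 calls, against 5416 with voom, 2539 and 2757 without KO2 replicate 2 or 1, and 1849 and 1971 without KO1 replicate 1 or 2. Of its calls 1800 were higher, against 2087 of 4207 with library size only, 2191 of 4321 with quantile normalization and 2680 with voom.

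Same-numbered libraries did not deviate together (correlations of 0.019, -0.0041 and -0.038 over 16046 genes), so the numbers do not pair the libraries. With the replicate block, 53 members were called higher and 11 lower in KO2 minus WT (median 0.67), 50 and 1 in KO2 minus KO1 (0.40), and 38 and 22 in KO1 minus WT (0.13). Over all genes the block gave 3467 calls in KO2 minus KO1. Depth limits members such as FMO4 and ARHGAP30, where 1 read in 1 kb equals 0.0429 to 0.0544 FPKM.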

Other observations

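Genes of other kinds inside the interval were measured alongside the members. The 27 that passed the same level (antisense and long noncoding RNAs, pseudogenes and small RNAs) had medians of 0.64 log2 for KO2 minus WT, 0.25 for KO2 minus KO1 and 0.25 for KO1 minus WT. Both KO2 libraries lay above both KO1 libraries in 14 of them, below in 3 and overlapping in 10. Over all genes tested 29.2% lay above and 35.6% below. KO2 levels chose the interval, so nothing is read from the count. Some of the 27 rest on few reads, such as RF01225 with 0 to 8 recovered reads a library. GAS5, a noncoding host of small nucleolar RNAs in the third stretch, had 86.4 and 83.4 FPKM in KO2, 57.4 and 57.4 in KO1 and 53.8 and 52.3 in WT, with KO2 at 1.48 times KO1. AL021068.1, a long noncoding RNA, had 9.58 and 9.93 FPKM in KO2, 5.08 and 5.65 in KO1 and 0.6100 and 0.777 in WT, in the order KO2, KO1, WT with no overlap. GCSHP5, a processed pseudogene, had 17.4 and 15.6 FPKM in KO2, 18.4 and 14.7 in KO1 and 23.5 and 20.3 in WT, with WT highest and the KO2 and KO1 libraries overlapping. These 3 were chosen after their values were seen.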
